A study of Mus musculus with 3 samples.

Results

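The Slc25 genes encode the mitochondrial carriers, a family of membrane proteins that sit mostly in the inner mitochondrial membrane. Members were taken by symbol, as every gene named Slc25a followed by a number, and 47 such genes were found among the 23356 symbols of the deposited tables. All 47 had an estimate in every library, no member symbol was repeated, and 33 members reached 1 FPKM in at least 1 library. FPKM stands for fragments per kilobase of transcript, scaled to the number of mapped fragments, so levels can be compared between genes within a library. The members lay on 19 chromosomes, 4 of them on X.

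Liver RNA of mice aged 16 weeks on a C57BL6J/FVB background was sequenced after ribosomal RNA had been removed. There were 3 libraries, 1 per group: wildtype mice on an Ad libidum diet (wt AL), Ercc1 delta/- mice on the same diet (Ercc1 AL) and Ercc1 delta/- mice under Diet restriction (Ercc1 DR). The mutants carry 1 delta and 1 null allele of Ercc1, which encodes a subunit of a DNA repair nuclease. No wildtype library under restriction was analysed here. The number of animals behind a library, their sex and the time at which livers were taken are not stated in the labels. With 1 library per group no spread between animals could be had, so no test was made, no p-value or SD is given, and every comparison describes these libraries. Where 3 FPKM values follow each other, they stand in the order wt AL, Ercc1 AL, Ercc1 DR.

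Carriers of this family share a fold of repeated membrane-spanning helices and exchange or import metabolites that the inner membrane does not let through. In hepatocytes they join pathways that are split between mitochondria and cytosol: oxidative phosphorylation needs ADP and phosphate brought in, the urea cycle needs ornithine in and citrulline out, the malate-aspartate shuttle moves reducing equivalents, citrate leaves for fatty acid synthesis, and acylcarnitines enter for oxidation. The carriers are encoded in the nucleus, made in the cytosol and inserted by the import machinery of the outer and inner membranes.

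The summed level of the family was highest in Ercc1 DR. The summed FPKM of the 47 members was 322 in wt AL, 420 in Ercc1 AL and 922 in Ercc1 DR as deposited. Of the 33 members with 1 FPKM in any library, 24 (72.7%) had their highest deposited FPKM in Ercc1 DR, 4 in Ercc1 AL and 5 in wt AL, and 20 (60.6%) followed the order wt AL, Ercc1 AL, Ercc1 DR from low to high. Over all 12816 genes with 1 FPKM in any library, 56.9% were highest in Ercc1 DR and 52.5% followed that order. Libraries also differed in general level: the 9109 genes that reached 1 FPKM in every library had a median FPKM ratio of 1.41 for Ercc1 AL against wt AL, 1.26 for Ercc1 DR against Ercc1 AL and 1.72 for Ercc1 DR against wt AL. After each pair of libraries was rescaled to remove that shift, the ratio of the family sums was 0.927 for Ercc1 AL against wt AL, where it had been 1.30 as deposited. It was 1.74 for Ercc1 DR against Ercc1 AL (2.20 as deposited) and 1.67 for Ercc1 DR against wt AL (2.86 as deposited). The direction of the sum under free feeding thus turned with the rescaling, while under restriction it was higher on both scales. After rescaling, 18 of the 33 members (54.5%) were higher in Ercc1 DR than in both other libraries, beside 36.8% of all genes.

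Most of the added FPKM in Ercc1 DR came from 4 genes: Slc25a3, the phosphate carrier, Slc25a5, an ADP/ATP translocase, Slc25a15, the ornithine carrier, and Slc25a22, a glutamate carrier. Together they held 28.9% of the family sum in wt AL, 36.9% in Ercc1 AL and 60.6% in Ercc1 DR, shares that do not depend on rescaling. The other 43 members summed to 229, 265 and 363 FPKM in that order as deposited. These sums still hold the general shift, 1.72 for Ercc1 DR against wt AL and 1.26 for Ercc1 DR against Ercc1 AL. Against wt AL the sum of these 43 members in Ercc1 DR rose by less than that shift, and against Ercc1 AL by slightly more. The higher rescaled family sum in Ercc1 DR against wt AL thus came from the 4 genes. They are also the members past 2-fold for Ercc1 DR against Ercc1 AL, so their share is no separate support.

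Single members were compared by the log2 ratio of FPKM + 1 wherever either library of a pair reached 1 FPKM, and a 2-fold difference (log2 of 1) was the threshold for counting. Counted over the family for Ercc1 AL against wt AL, 32 members were measured, and after rescaling none was at least 2-fold higher and 1 was lower (Slc25a30). Over all 12359 genes measured, 2.35% were higher and 4.9% lower, so the family's share was no larger than the background in the first case and rested on 1 gene in the second. As deposited 2 members were higher (Slc25a15 and Slc25a33) and none lower, beside 5.8% and 2.2% of all genes. The median log2 ratio of the members was 0.05 rescaled, against 0.01 over all genes, and 0.48 as deposited, against 0.34. Signs of 4 members, Slc25a23, Slc25a38, Slc25a39 and Slc25a47, were negative after rescaling and positive as deposited.

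For Ercc1 DR against Ercc1 AL, 4 of 32 members (12.5%) were at least 2-fold higher after rescaling and 2 (6.25%) lower, beside 3.12% and 12% of 12361 genes. The higher ones were Slc25a3, Slc25a5, Slc25a15 and Slc25a22, and the lower ones Slc25a30 and Slc25a43. As deposited 7 were higher, with Slc25a32, Slc25a46 and Slc25a48 added, and 2 lower, beside 6.5% and 8.71% of all genes. The members' median log2 ratio was 0.27 rescaled, with 23 of 32 above 0, against -0.06 over all genes, and 0.50 as deposited, against 0.17. Among genes with at least 5 FPKM in either library 6.75% were higher and 19.8% lower, so the background depends on the level at which genes are taken. Under 1 of the alternatives each, 4 members had the other sign. The deposited intervals, given below for single members, each come from 1 library and do not measure differences between animals. What they cover is not stated in the sources used here. They were not rescaled. Of the 33 members with 1 FPKM in any library, intervals overlapped for 7 in Ercc1 AL against wt AL. They overlapped for 5 in Ercc1 DR against Ercc1 AL and for 3 in Ercc1 DR against wt AL. Intervals without overlap were thus common among members, but as deposited they also hold the general shift between libraries. Their share over all genes was not computed, so these counts do not set the family apart from other genes.

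In Ercc1 DR against wt AL, a comparison that shares a library with each of the others and differs in both genotype and diet, 8 of 32 members (25%) were at least 2-fold higher after rescaling and 2 lower, beside 6.02% and 16.4% of 12127 genes. Added to the 4 above were Slc25a32, Slc25a33, Slc25a46 and Slc25a48. As deposited 14 were higher and 2 lower, beside 24% and 8.63%. For 7 members, Slc25a1, Slc25a16, Slc25a37, Slc25a38, Slc25a44, Slc25a47 and Slc25a51, the log2 ratio was negative after rescaling and positive as deposited. The members' median was 0.30 rescaled (all genes -0.03) and 0.87 as deposited (all genes 0.50).

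Markers bear on what cells the libraries held. Of 10 hepatocyte markers, 9 had an estimate (albumin had none, since its rows carry a status without one), and their summed FPKM was 5345 in wt AL, 5482 in Ercc1 AL and 10760 in Ercc1 DR as deposited. Cps1 is both in that list and in the urea cycle list below. Endothelial markers summed to 31.2, 30.2 and 14.3 FPKM, macrophage markers to 13.7, 17.0 and 10.5, and the muscle, adipocyte, cholangiocyte and pancreatic lists to at most 16.0 in any library, with no marker at 0. Erythroid markers summed to 176, 111 and 169 FPKM, and testis germ cell markers to 4.59, 28.0 and 7.73. Each of these sums was mostly 1 gene, Hba-a2 (144.5, 72.3 and 150.7 FPKM) and Tnp1 (2.65, 25.3 and 6.53 FPKM). Other erythroid markers had other orders, such as Alas2 (3.10, 14.8 and 2.50 FPKM) and Hbb-b2 (20.7, 16.4 and 13.3 FPKM). Among hepatocyte markers, Serpina1a went the other way (281, 281 and 193 FPKM). After rescaling, Serpina1a (-1.32), Apoa2 (-0.40) and Trf (-0.05) had log2 ratios below 0 for Ercc1 DR against wt AL, and the others with an estimate were above 0. As deposited, the hepatocyte marker sum was thus highest and the endothelial sum lowest in the library with the highest carrier sum. The part of either in the results on carriers was not tested. In bulk liver, fewer cells of a type and less RNA per cell cannot be told apart. Depth implied by the deposited intervals, with each bound taken as 2 SD, was 19.0, 25.1 and 25.0 M fragments in the same order. Ercc1 itself stood at 0.461, 0.573 and 0.475 FPKM with overlapping intervals, and an FPKM summed over the gene does not check the labels.

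**Figure D1:**
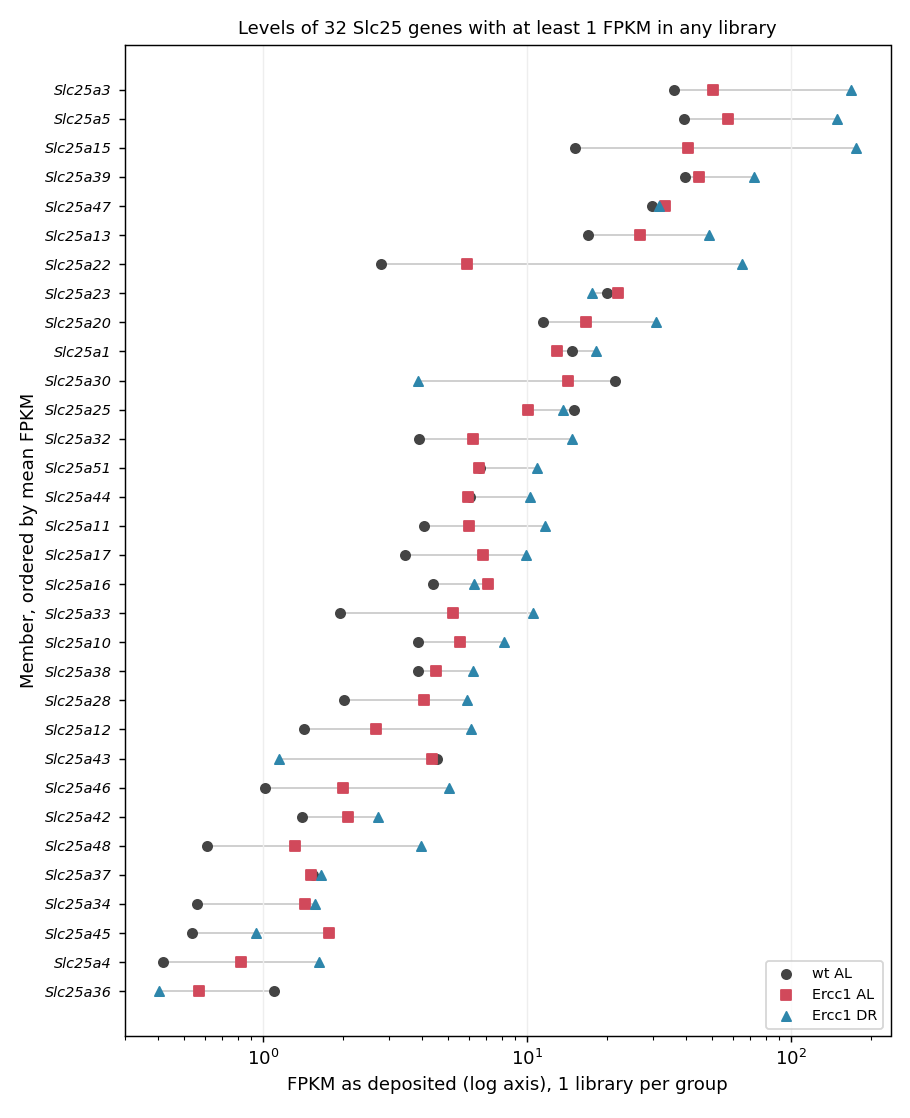
FPKM as deposited (log axis) of 32 Slc25 genes with at least 1 FPKM in any library, ordered by mean; circles are wt AL, squares Ercc1 AL and triangles Ercc1 DR, 1 library each. Ercc1 DR is the highest library for 24 of these genes as deposited (56.9% of all genes are highest there), with the widest spans at Slc25a22 (2.79 to 65.0 FPKM) and, in the other direction, Slc25a30 (21.6 to 3.85 FPKM).

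The amino acid carriers held 14.7% of the family sum in wt AL, 20.9% in Ercc1 AL and 34.0% in Ercc1 DR. Slc25a22 (chromosome 7, 141429749 to 141437874 of mm10), which carries glutamate with a proton, was at 2.79 FPKM in wt AL, 5.93 in Ercc1 AL and 65.0 in Ercc1 DR. It was low in both freely fed libraries and high under restriction, moved from the 21st to the 5th place within the family, and its deposited intervals did not overlap in any pair. As a ratio of deposited FPKM it was 11.0-fold higher in Ercc1 DR than in Ercc1 AL, or 8.70-fold after rescaling, and its rescaled log2 ratio of FPKM + 1 was 2.94. Only 29 of the 12361 genes measured in that pair had a higher one.

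Slc25a15 (chromosome 8, 22375550 to 22398621) exchanges ornithine for citrulline across the inner membrane and so joins the mitochondrial and cytosolic steps of the urea cycle. Its level was 15.2 FPKM in wt AL, 40.6 in Ercc1 AL and 175.5 in Ercc1 DR. Its deposited intervals did not overlap in any pair, which was common among members. The gene went from the 8th to the 4th and then the 1st place in the family, from 4.71% to 9.66% to 19.0% of its sum. The rescaled log2 ratio was 0.89 for Ercc1 AL against wt AL, 1.76 for Ercc1 DR against Ercc1 AL and 2.69 for Ercc1 DR against wt AL. Under free feeding that stayed under 2-fold after rescaling and passed it as deposited (1.36).

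These are the stretches of DNA just before the annotated starts of both genes, shown because they were the carriers highest in Ercc1 DR relative to wt AL (RefSeq, GRCm38.p6, which has the coordinates of mm10; both on the minus strand, written 5′ to 3′). Each is the longest run outside annotated exons within the 250 bases before the start, at chr7:141437893-141438112 with 220 bases and chr8:22398622-22398720 with 99 bases.
Slc25a22: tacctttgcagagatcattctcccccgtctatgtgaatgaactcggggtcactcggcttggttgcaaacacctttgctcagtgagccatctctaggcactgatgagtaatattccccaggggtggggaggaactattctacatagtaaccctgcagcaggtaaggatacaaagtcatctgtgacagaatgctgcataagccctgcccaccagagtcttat
Slc25a15: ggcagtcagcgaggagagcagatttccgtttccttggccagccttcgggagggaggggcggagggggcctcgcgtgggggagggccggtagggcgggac
Their GC content was 49.1% and 71.7%, so they had little in common in base composition. Neither held any of the 3 motifs searched (TGACGTCA of the cyclic AMP response element, CCGGAAGT of ETS factors and GCGCATGC of NRF1, on both strands), which says only that these letters are not in the window.

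Among the other amino acid carriers, Slc25a13 or citrin, the liver form of the aspartate-glutamate carrier, was at 17.0, 26.9 and 48.7 FPKM. The second form, Slc25a12 or aralar, was lower in each library, at 1.43, 2.68 and 6.10 FPKM. Both stood lowest in wt AL and highest in Ercc1 DR, with rescaled log2 ratios of 0.51 and 0.68 for Ercc1 DR against Ercc1 AL, under 2-fold. Slc25a44, which carries branched-chain amino acids, was at 6.07, 5.95 and 10.2 FPKM, and Slc25a38, a glycine carrier needed for heme synthesis, at 3.86, 4.52 and 6.24 FPKM. Ercc1 DR was highest as deposited, and after rescaling the log2 ratios were 0.40 and 0.11 against Ercc1 AL but -0.03 and -0.07 against wt AL, where they had been positive as deposited. The remaining members of the group, Slc25a29, Slc25a18 and Slc25a2, were below 1 FPKM in every library.

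Enzymes of the pathways that these carriers serve were also higher in Ercc1 DR. Of 6 urea cycle enzymes measured, 4 were at least 2-fold higher in Ercc1 DR than in Ercc1 AL after rescaling and none lower, with a median log2 ratio of 1.21. Cps1, which makes carbamoyl phosphate in the matrix, was at 182, 299 and 1146 FPKM, and Arg1, which releases urea and ornithine, at 89.2, 169 and 626 FPKM. Nags, which makes the activator of Cps1, and Asl had rescaled log2 ratios of 1.27 and 1.14. The enzymes that handle citrulline, the substrate Slc25a15 exports, were closer: Otc, which makes it, stood at 26.03, 40.2 and 63.0 FPKM (rescaled log2 ratio 0.31 for Ercc1 DR against Ercc1 AL) and Ass1, which uses it, at 123, 186 and 296 FPKM (0.33). Under free feeding none of the 6 passed 2-fold in either direction, with a median of 0.17.

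Got1, the cytosolic aspartate aminotransferase of the malate-aspartate shuttle, was at 16.1 FPKM in wt AL, 41.0 in Ercc1 AL and 470 in Ercc1 DR. Its library under restriction was by far the highest, with a rescaled log2 ratio of 3.16 against Ercc1 AL. Of the 4 shuttle enzymes, 3 passed 2-fold there (Got1, Mdh2 at 1.49 and Mdh1 at 1.14), and Got2, the mitochondrial aminotransferase, did not (0.24). The shuttle's carriers, Slc25a13, Slc25a12 and the oxoglutarate carrier Slc25a11, lay between 0.51 and 0.68, below 3 of its 4 enzymes. Of 7 genes measured for glutamate, proline and ornithine, only Glud1, glutamate dehydrogenase, passed 2-fold after rescaling, at 48.6, 66.0 and 219.7 FPKM and a log2 ratio of 1.39 for Ercc1 DR against Ercc1 AL. Oat, which forms glutamate semialdehyde from ornithine, was just under it at 0.96, and 4 of the 7 passed as deposited. Of 4 glycine cleavage genes, Gldc and Dld passed with 1.09 and 1.05.

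The adenine nucleotide and phosphate carriers were the largest group in every library, with 36.1%, 35.0% and 38.3% of the family sum. Slc25a3 (chromosome 10, 91116578 to 91123963), which imports phosphate for ATP synthesis, was at 35.8, 50.5 and 169 FPKM. Slc25a5 (chromosome X, 36795652 to 36798806), the ADP/ATP translocase that dominates in liver, was at 39.2, 57.8 and 149 FPKM. Both were far higher in Ercc1 DR than in either freely fed library, and between the freely fed libraries their ratio was about that of the median gene. Their rescaled log2 ratios were 0.00 and 0.07 for Ercc1 AL against wt AL and 1.39 and 1.02 for Ercc1 DR against Ercc1 AL. Slc25a5 passed 2-fold in 7 of 9 alternative ways of processing, with values of 0.94 to 1.35, and Slc25a3 in 9 of 9. For both genes the deposited FPKM lay above its own interval in every library, as it did for Slc25a15. In Ercc1 DR, the 149 FPKM of Slc25a5 came with bounds of 123 and 129. That gene also has 2 annotated near copies, Gm5529 (96.8% identity over 900 of its 1240 transcript bases) and Gm5560 (98.3% over 887), so fragments may have been split among them.

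The other ADP/ATP translocases were scarce. Slc25a4, the form of heart and muscle, was at 0.417, 0.826 and 1.62 FPKM, and Slc25a31, the testis form, stayed below 1 FPKM in every library, with its highest value of 0.578 in wt AL. Slc25a5 thus supplied nearly all translocase FPKM in each library.

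The ATP-Mg/phosphate carriers did not share the high values in Ercc1 DR. Slc25a23 was at 20.1, 22.1 and 17.5 FPKM, with rescaled log2 ratios of -0.34 for Ercc1 AL against wt AL (0.13 as deposited) and -0.64 for Ercc1 DR against Ercc1 AL. Slc25a25 stood at 15.1, 10.1 and 13.6 FPKM. It was highest in wt AL and lowest in Ercc1 AL, with a rescaled log2 ratio of -0.99 between them, just under 2-fold, and -0.54 as deposited. Slc25a24 and Slc25a41, of the same subgroup, were below 1 FPKM throughout.

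The window before an inner start of Slc25a25 was 1 of 2 among 46 windows of 36 members that held the cyclic AMP response element TGACGTCA (4.35%, against 1.79% of 32851 windows of the same length over all genes). It is shown for that reason, at chr2:32424067-32424316 on the minus strand, 250 bases with the motif in capitals, whose first base lies 150 bases before the start.
Slc25a25: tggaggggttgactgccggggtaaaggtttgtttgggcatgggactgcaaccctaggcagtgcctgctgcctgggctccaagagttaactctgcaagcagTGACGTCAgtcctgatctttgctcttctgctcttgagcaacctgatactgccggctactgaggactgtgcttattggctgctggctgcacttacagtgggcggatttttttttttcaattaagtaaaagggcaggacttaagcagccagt
A match is a description of the letters and not evidence of binding. The other member with that motif was Slc25a36. CCGGAAGT was found in 1 member window, of Slc25a20 (2.17%, against 3.89% of all windows), and GCGCATGC in 2, of Slc25a31 and Slc25a54 (4.35% against 2.71%). The median GC content of the member windows was 59.3%, against 52.7% of all windows.

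Slc25a43, placed with the adenine nucleotide carriers by likeness although its substrate is not settled, went the other way from Slc25a5, its neighbour on X. The genes lie 18344 bases apart, with Slc25a43 from 36743632 to 36777307. Its level was 4.55 FPKM in wt AL, 4.35 in Ercc1 AL and 1.15 in Ercc1 DR. The freely fed libraries had overlapping intervals and the library under restriction lay below both, with a rescaled log2 ratio of -1.54 against Ercc1 AL. Of 3 further pairs of members within 100 kb of each other, each had at least 1 gene that stayed below 1 FPKM.

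ATP synthase, which uses the ADP and phosphate these carriers bring in, had 4 of 15 subunits at least 2-fold higher in Ercc1 DR than in Ercc1 AL after rescaling (Atp5c1 1.29, Atp5b 1.16, Atp5d 1.12 and Atp5o 1.07) and none lower, with a median log2 ratio of 0.70. As deposited, 8 of 15 passed. Atp5g1 and Atp5g2, which encode the same c subunit of the rotor from different genes, differed from the rest: Atp5g1 was at 71.3, 32.9 and 25.2 FPKM and Atp5g2 at 101, 53.6 and 39.3 FPKM. They were the 2 subunits past 2-fold under free feeding, both lower in Ercc1 AL (rescaled log2 ratios of -1.58 and -1.38), while the third gene for that subunit, Atp5g3, was at 46.2, 64.7 and 160 FPKM.

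**Figure D2:**
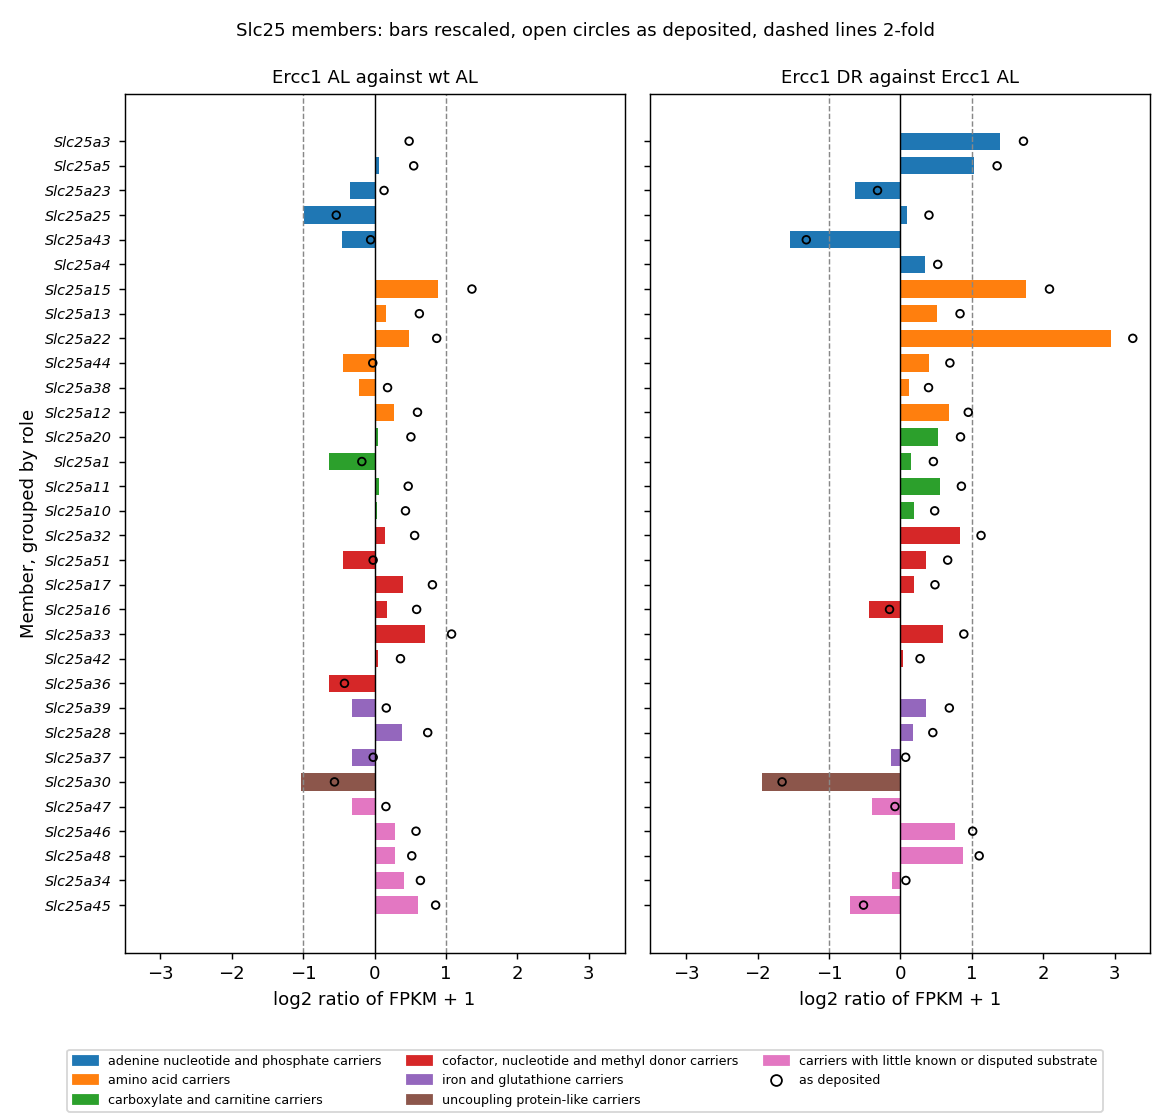
Rescaled log2 ratio of FPKM + 1 (bars, coloured by role) and the same as deposited (open circles) for members measured in the pair, Ercc1 AL against wt AL on the left and Ercc1 DR against Ercc1 AL on the right; dashed lines mark 2-fold. On the right, bars of Slc25a3, Slc25a5, Slc25a15 and Slc25a22 pass the upper line and those of Slc25a30 and Slc25a43 the lower one, and on the left only the bar of Slc25a30 passes, at -1.03.

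Slc25a30 (chromosome 14, 75761999 to 75787037), a carrier related to the uncoupling proteins and first described in kidney, was the member with the lowest ratios. It stood at 21.6 FPKM in wt AL, 14.3 in Ercc1 AL and 3.85 in Ercc1 DR, with no overlap of intervals in any pair. The order was the reverse of that of most members, and its place in the family went from the 5th to the 9th to the 25th. Rescaled log2 ratios were -1.03 for Ercc1 AL against wt AL, -1.94 for Ercc1 DR against Ercc1 AL and -2.90 for Ercc1 DR against wt AL. The first of these was past 2-fold in 6 of 9 alternatives and was -0.56 as deposited, while the others passed in 9 of 9. Because this gene made up most of its group, the uncoupling protein-like carriers went from 6.86% of the family sum in wt AL to 3.60% in Ercc1 AL and 0.507% in Ercc1 DR. Its relatives Slc25a14 and Slc25a27 were below 1 FPKM in every library, as were Ucp1 (0.324, 0.374 and 0.150 FPKM) and Ucp3, and Ucp2 was at 0.897, 1.21 and 1.25 FPKM.

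The 250 bases before its start, shown because its ratios were the lowest of the members measured, lie at chr14:75787038-75787287 on the minus strand, outside annotated exons, with a GC content of 64.4% and none of the 3 motifs.
Slc25a30: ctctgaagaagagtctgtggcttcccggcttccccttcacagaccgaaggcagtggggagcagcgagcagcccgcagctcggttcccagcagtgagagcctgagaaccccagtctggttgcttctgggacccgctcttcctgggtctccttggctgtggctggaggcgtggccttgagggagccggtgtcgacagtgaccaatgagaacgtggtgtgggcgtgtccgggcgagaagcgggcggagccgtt

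Carboxylate and carnitine carriers made up 10.8%, 9.98% and 7.52% of the family sum, and no member passed 2-fold in any comparison after rescaling. Slc25a20, which carries acylcarnitines in for oxidation, was at 11.5, 16.8 and 30.8 FPKM, and Slc25a1, the citrate carrier, at 14.8, 13.0 and 18.2 FPKM. The former was lowest in wt AL and the latter in Ercc1 AL. For Ercc1 AL against wt AL the rescaled log2 ratio was 0.05 for Slc25a20 and -0.64 for Slc25a1, and for Ercc1 DR against Ercc1 AL it was 0.52 and 0.15. Against wt AL, Slc25a1 in Ercc1 DR had a rescaled log2 ratio of -0.45, turned from 0.28 as deposited. The oxoglutarate/malate carrier Slc25a11 stood at 4.05, 5.999 and 11.6 FPKM and the dicarboxylate carrier Slc25a10 at 3.86, 5.56 and 8.14 FPKM, both lowest in wt AL and highest in Ercc1 DR. Slc25a21, the oxodicarboxylate carrier, was below 1 FPKM.

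Genes of cytosolic citrate use and lipogenesis were further apart between the freely fed libraries than the citrate carrier was. All 8 genes of cytosolic citrate use and lipogenesis were at least 2-fold lower in Ercc1 AL than in wt AL after rescaling, with a median log2 ratio of -1.67, and 5 of 8 were as deposited. Scd1, the stearoyl-CoA desaturase, was at 441, 88.7 and 325 FPKM (-2.79 for Ercc1 AL against wt AL), and Me1, malic enzyme, at 36.6, 11.3 and 16.2 FPKM (-2.08). Under restriction 2 of the 8, Scd1 (1.53) and Acly (1.15), were at least 2-fold higher than in Ercc1 AL. Acly, which splits the exported citrate, was at 9.78 FPKM in Ercc1 AL against 28.8 in Ercc1 DR and 17.2 in wt AL. For Ercc1 DR against wt AL, 5 of the 8 were still at least 2-fold lower after rescaling and 0 higher, with a median log2 ratio of -1.33. As deposited, 2 were lower in that pair. Carnitine system and fatty acid oxidation genes resembled Slc25a20 in size: none of 9 passed 2-fold for Ercc1 AL against wt AL (median 0.22) or for Ercc1 DR against Ercc1 AL (median 0.36). Cpt1a, which makes the acylcarnitines, was the 1 that passed for Ercc1 DR against wt AL, at 13.1, 34.2 and 55.5 FPKM and a rescaled log2 ratio of 1.26, while 7 of 9 passed in that pair as deposited. No gluconeogenic enzyme of 5 passed in any comparison.

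**Figure D3:**
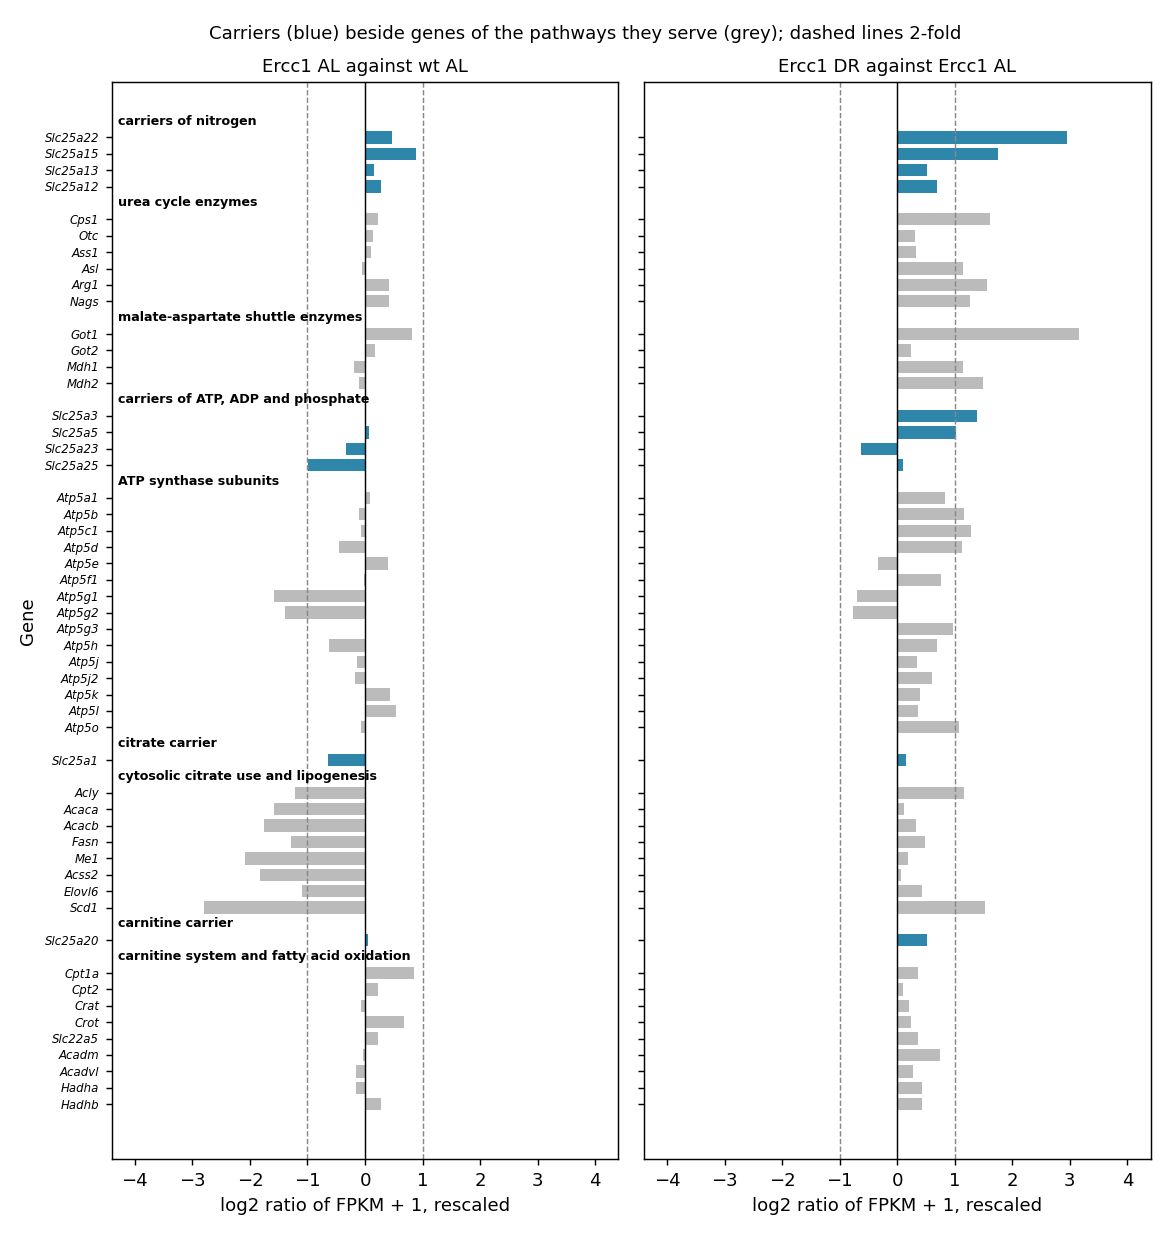
Rescaled log2 ratios of FPKM + 1 for carriers (blue) above the enzymes of the pathways they serve (grey), Ercc1 AL against wt AL on the left and Ercc1 DR against Ercc1 AL on the right, 1 library per group; dashed lines mark 2-fold. The 8 lipogenic genes lie below the lower line on the left with Slc25a1 at -0.64, and on the right Slc25a22 (2.94) and Got1 (3.16) have the longest bars.

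Carriers of cofactors, nucleotides and methyl donors held 7.60%, 8.61% and 6.23% of the family sum. Slc25a32, linked to folate and FAD transport, was at 3.90, 6.23 and 14.8 FPKM, and Slc25a33, a pyrimidine nucleotide carrier, at 1.95, 5.23 and 10.5 FPKM. Both were lowest in wt AL and highest in Ercc1 DR, and they were the group's 2 members past 2-fold for Ercc1 DR against wt AL, with rescaled log2 ratios of 1.01 and 1.34. Slc25a32 was close to the threshold and passed in 7 of 9 alternatives (0.97 to 1.69). Exons of Slc25a33 share 14.9% of their bases with the antisense gene Gm13068, those of Slc25a11 8.92% with Rnf167 and those of Slc25a46 7.06% with B930094E09Rik, and the labels do not say whether counting used the strand. Slc25a51, the NAD carrier, stood at 6.64, 6.54 and 10.9 FPKM, and Slc25a17, which imports cofactors into peroxisomes rather than mitochondria, at 3.44, 6.79 and 9.88 FPKM.

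The carriers linked to coenzyme A differed less. Slc25a16 was at 4.39, 7.10 and 6.29 FPKM and Slc25a42 at 1.40, 2.08 and 2.73 FPKM. Slc25a36, the second pyrimidine nucleotide carrier, went opposite to Slc25a33, at 1.10, 0.569 and 0.404 FPKM, highest in wt AL. Slc25a26, which carries S-adenosylmethionine, was at 0.447, 0.630 and 0.905 FPKM. Of 9 enzymes measured for coenzyme A, folate and methyl donors, Mat1a, which makes S-adenosylmethionine in liver, was the 1 past 2-fold for Ercc1 DR against Ercc1 AL, at 106, 188 and 581 FPKM and a rescaled log2 ratio of 1.29.

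Among iron and glutathione carriers, Slc25a39, which imports glutathione, was the highest member of the family in wt AL at 39.7 FPKM and stood at 44.6 in Ercc1 AL and 72.2 in Ercc1 DR, where it was 4th. Its deposited values had the usual order, yet after rescaling the log2 ratio was -0.32 for Ercc1 AL against wt AL (0.16 as deposited) and 0.08 for Ercc1 DR against wt AL. Its paralog Slc25a40 was below 1 FPKM. Slc25a28, the mitoferrin of non-erythroid tissue, was at 2.02, 4.07 and 5.93 FPKM, and Slc25a37, the erythroid mitoferrin, at 1.55, 1.52 and 1.65 FPKM with overlapping intervals in every pair. The erythroid marker sum, set mostly by Hba-a2, varied more than Slc25a37 did. Of 7 genes of mitochondrial iron use, Ppox, the penultimate enzyme of heme synthesis, passed 2-fold both ways, higher in Ercc1 AL than in wt AL (3.13, 10.7 and 4.64 FPKM, rescaled log2 ratio 1.09) and lower in Ercc1 DR than in Ercc1 AL (-1.35). Nfs1, the cysteine desulfurase of iron-sulfur cluster assembly, was lower in Ercc1 AL than in wt AL (28.5, 18.5 and 15.3 FPKM, -1.07).

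Carriers with little known or disputed substrate went from 10.4% to 9.78% to 4.74% of the family sum. Most of that was Slc25a47, a liver-enriched member, which was at 29.8, 33.4 and 31.6 FPKM. As deposited its level was much the same in all libraries, while the family sum was highest in Ercc1 DR. Its intervals overlapped for Ercc1 DR against either other library, but not for Ercc1 AL against wt AL. In every library its FPKM lay outside its own interval. After rescaling, its log2 ratio was -0.32 for Ercc1 AL against wt AL and -0.40 for Ercc1 DR against Ercc1 AL. For Ercc1 DR against wt AL it was -0.67, against 0.08 as deposited. Slc25a46, which acts in the outer membrane in mitochondrial dynamics, was at 1.01, 2.01 and 5.06 FPKM, and Slc25a48, linked to choline transport, at 0.614, 1.32 and 3.97 FPKM. These 2 were at least 2-fold higher in Ercc1 DR than in wt AL, with rescaled log2 ratios of 1.06 and 1.16. Slc25a34 was at 0.562, 1.44 and 1.57 FPKM, and Slc25a45 at 0.536, 1.78 and 0.941 FPKM, 1 of 4 members highest in Ercc1 AL.

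**Figure D4:**
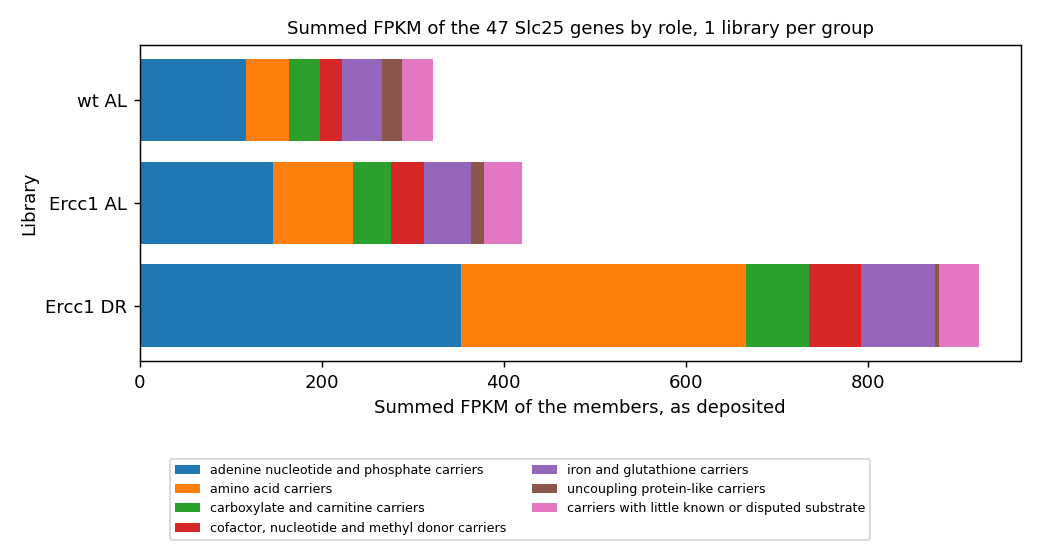
Summed FPKM as deposited of the 47 members in each library (1 library per group), stacked by role. The bars reach 322, 420 and 922 FPKM, and the amino acid carriers widen from 47.4 to 87.9 to 313 FPKM while the uncoupling protein-like carriers narrow from 22.1 to 15.1 to 4.67 FPKM.

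The 14 members below 1 FPKM in every library were Slc25a2, Slc25a14, Slc25a18, Slc25a21, Slc25a24, Slc25a26, Slc25a27, Slc25a29, Slc25a31, Slc25a35, Slc25a40, Slc25a41, Slc25a53 and Slc25a54. Their values ran from 0.115 to 0.957 FPKM, the highest being Slc25a29, a carrier of basic amino acids, in Ercc1 DR. They are in none of the counts of members past 2-fold given above. Slc25a35, lowest in each library, shares 31.3% of its exonic bases with Rangrf on the opposite strand.

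Further genes of mitochondrial transport were read beside the family. Carriers filed under other symbols had 3 measured genes, of which Mtch2, an outer membrane insertase, was at 7.06, 11.1 and 25.8 FPKM, and none passed 2-fold for Ercc1 DR against Ercc1 AL. Of 7 measured genes that import carriers, the small chaperones of the intermembrane space Timm8a1 (5.59, 10.8 and 32.9 FPKM, rescaled log2 ratio 1.21) and Timm10 (2.24, 4.27 and 13.7 FPKM, 1.19) passed in that pair, and the receptor Tomm70a, at 5.78, 14.2 and 30.1 FPKM, joined them for Ercc1 DR against wt AL (1.48). Among 10 other transporters of the inner membrane none passed for Ercc1 DR against Ercc1 AL, the highest being Mpc1 of the pyruvate carrier (18.7, 29.9 and 74.0 FPKM, 0.95).

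Measures of mitochondrial content did not move together. Vdac2, an outer membrane pore, was at 5.52, 9.29 and 24.8 FPKM (rescaled log2 ratio 1.01 for Ercc1 DR against Ercc1 AL), whereas Tfam, which packages mitochondrial DNA, was at 37.4, 33.7 and 15.2 FPKM (-1.41) and Cs, citrate synthase, at 57.9, 44.3 and 35.3 FPKM (-0.65). Of these 9 genes 7 lay above 0 and the other two, Tfam and Cs, were lowest in Ercc1 DR as deposited too.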

How the data were processed

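Each of the 3 libraries came with a table of 23850 rows. Per the file headers, the authors deposited FPKM per gene with the bounds of an interval and a status code, and reads were placed on mm10, per the submitters' processing notes. The program, its version, the annotation and the level of the interval were not given in the sources used here. RNA was rRNA-depleted and sequenced by a TruSeq protocol, per the labels' protocols.

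Rows with status HIDATA or FAIL were treated as missing. Each pair of libraries was rescaled so that the median log2 ratio was 0 over the 9109 genes that reached 1 FPKM in every library, the shift being divided equally between both sides. Log2 ratios of FPKM + 1 were then taken over genes with at least 1 FPKM in either library, and 2-fold was the threshold. The pseudocount of 1 understates ratios of low genes. The calculation was tested on simulated data in which equally many genes were raised and lowered. In these libraries more genes were at least 2-fold lower than higher after rescaling, a setting that the simulation did not cover. Windows of promoters (250 bases before to 50 after a start) came from RefSeq, GRCm38.p6, with 36 of 47 members matched. Near copies were sought with BLAST 2.17.0 among GENCODE transcripts (at least 95% identity over 200 bases), and tables were handled with Python 3.11.15, pandas 2.3.3 and numpy 2.4.6.

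Every member with 1 FPKM in any library is named except 1 that is not reported here, and it stays in the counts and sums. Also named are, from each pathway list, up to 4 genes with the largest ratios, and lists of up to 6 may be named whole. The members, roles, lists and markers were chosen with earlier results of these data known. Other genes named, such as Atp5g3 and Cs, were chosen after their values were seen.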

Additional observations from a re-analysis of the deposited data

How the results depend on the processing

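Alternatives were the values as deposited, a median over genes from 5 FPKM, upper quartile scaling, a pseudocount of 0.1, a minimum of 5 FPKM, no minimum, interval midpoints, the first of repeated rows and, chosen after seeing the data, scaling to the sum of protein-coding genes without the 100 most abundant. Over them 809 values of single members kept their side of 2-fold, 7 fell under it, 20 passed it and 0 reversed as calls. For Ercc1 AL against wt AL, 0 members were higher, against 2 as deposited, 1 with the pseudocount of 0.1 and 1 with the protein-coding sum. There, 1 was lower, against 0 as deposited, 0 with the upper quartile, 0 with the protein-coding sum and 3 with the pseudocount of 0.1, and the median of 0.05 became 0.48 as deposited and 0.15 with the protein-coding sum. For Ercc1 DR against Ercc1 AL, 4 higher became 7 as deposited, 2 lower became 1 with the minimum of 5 FPKM, and the median of 0.27 became 0.50 as deposited, 0.38 with the minimum of 5 FPKM and 0.081 with no minimum. For Ercc1 DR against wt AL, 8 higher became 14 as deposited, 2 lower became 1 with the minimum of 5 FPKM, and the median of 0.30 became 0.87 as deposited, 0.46 with the pseudocount of 0.1, 0.60 with the minimum of 5 FPKM and 0.013 with no minimum. The minimum of 5 FPKM leaves out Slc25a43 by construction, and with no minimum all 47 members enter. Medians over all genes changed as well. For Ercc1 AL against wt AL that median was 0.10 with the protein-coding sum. For Ercc1 DR against Ercc1 AL it was 0.15 with the minimum of 5 FPKM and -0.19 with no minimum. For Ercc1 DR against wt AL it was 0.23 and -0.17 in that order, and -0.05 with the pseudocount of 0.1. With that pseudocount, 3.62% of all genes were higher and 8.24% lower for Ercc1 AL against wt AL. The causes of the other shifts were not tested. No paired analysis was possible because each group has 1 library, and no library could be left out for the same reason. The interval reached 11.3%, 10.2% and 11.3% of FPKM to either side for the median member from 1 to 5 FPKM (wt AL, Ercc1 AL, Ercc1 DR), and 3.79%, 3.31% and 3.56% from 10 FPKM. The FPKM lay outside its own interval for 9, 11 and 13 of 47 members.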
